A study of Mus musculus with 61 samples.

Results

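Klf2, Klf4 and Klf5 are 3 of the 5154 genes to which the deposited Sono-seq table assigns regions of mouse embryonic stem (ES) cells. They were taken by gene symbol, together with their 27 enhancers (of 14265 distinct enhancers), their 3 promoters (of 5513 distinct start sites) and every listed Sox2 position within 200 kb of their start sites, which came to 41 of 52888 positions in 3 lists. The cells were mouse embryonic fibroblasts from E13.5 embryos of a mixed Black6-129X1/SvJ background with the genotype Col1a1::tetOP-OKSM ; R26-M2rtTA, in which doxycycline switches on a cassette of Oct4, Klf4, Sox2 and Myc. All groups received doxycycline at 2 µg/ml with ascorbate in serum and LIF medium and were collected at day 3. For Sono-seq, which sequences the DNA that sonication frees from cross-linked chromatin and is richer in accessible regions, 3 libraries carried a knockdown of CAF-1 by a hairpin that their labels do not name and 3 the control knockdown against Renilla luciferase. For Sox2 ChIP-seq, 1 immunoprecipitate and 1 input each carried the hairpin Chaf1a.166, the hairpin Chaf1a.2122, both against the large subunit of CAF-1, or the Renilla hairpin. The other 49 samples, RNA-seq among them, were not analysed here, so neither the depth of the knockdown nor the RNA of the 3 genes is given. The cells carry an added Klf4 copy in the cassette in every group, and the Sox2 antibody does not separate cassette Sox2 from that of the cells' own gene.

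Krüppel-like factors are zinc finger transcription factors that bind GC-rich and CACCC sequences. In mouse ES cells Klf2, Klf4 and Klf5 act together and in part replace each other in holding the naive pluripotent state. Klf4 is induced by LIF through Stat3, Klf2 is kept on by Oct4, and Klf5 also serves the first epithelium of the embryo, the trophectoderm. Klf4 is the member that reprogramming cassettes supply, while Klf2 and Klf5 have to be switched on from the cells' own genes. CAF-1 is the histone chaperone that places histones H3 and H4 on newly copied DNA.

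Promoter sequences are shown because both a Sono-seq value and the distance to Sox2 were read at the start sites. Only those of Klf2 and Klf4 are given, as the RefSeq set used had no entry for Klf5. The stretches are the 250 bases before the RefSeq start (build GRCm38.p6), at chr8:72318812-72319061 on the plus strand for Klf2 and chr4:55532476-55532725 on the minus strand for Klf4, and the RefSeq table used matched 2 of the 3 genes. Capitals mark every match on either strand to the 7 motifs searched. Those of the Krüppel-like and Sp factors were GGGCG, the core of a GC box, and CACCC, the core of a CACCC box. The Sox family cores were searched in 3 forms, of which ACAAAG is one, ACAATG is another and ACAATA is the last. CCAAT stood for the CCAAT box, and the TATA box was searched as TATAAA.
Klf2: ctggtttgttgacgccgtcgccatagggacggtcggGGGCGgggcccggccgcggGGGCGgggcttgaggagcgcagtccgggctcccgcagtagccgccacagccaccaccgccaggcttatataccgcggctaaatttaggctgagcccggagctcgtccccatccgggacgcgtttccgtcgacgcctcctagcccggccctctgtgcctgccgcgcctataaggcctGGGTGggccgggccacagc
Klf4: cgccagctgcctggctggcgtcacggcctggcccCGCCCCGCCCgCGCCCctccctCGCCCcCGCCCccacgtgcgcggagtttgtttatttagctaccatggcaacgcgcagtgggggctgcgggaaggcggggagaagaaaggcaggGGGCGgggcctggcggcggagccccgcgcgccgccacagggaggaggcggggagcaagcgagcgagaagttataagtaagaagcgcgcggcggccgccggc

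Both promoters were GC-rich, at 71.2% G and C for Klf2 and 74.0% for Klf4, against a median of 52.4% over 32851 RefSeq promoters. GGGCG matched 2 times in Klf2 and 6 times in Klf4, with overlapping matches counted, and 43.7% of all promoters held it at least once. CACCC matched 1 time in Klf2, 19 bases before the start, and not in Klf4, and 52.0% of promoters held it. Neither stretch held any of the other 5 motifs. The share of all promoters with one was 16.5% for ACAAAG, 10.7% for ACAATG, 8.17% for ACAATA, 33.8% for the CCAAT box and 12.4% for TATAAA. A match is a run of letters in this window, and no match says nothing of binding elsewhere.

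At the 3 promoters, the Sono-seq values of CAF-1 knockdown and Renilla cells lay close together. The Klf2 promoter, on chromosome 8 at 74842960 (mm9, as all positions of the files), had a Sono-seq value of 0.166 in CAF-1 knockdown cells and 0.163 in Renilla cells, a log2 ratio of 0.03. The Klf4 promoter, on chromosome 4 at 55545347, had 0.169 in CAF-1 knockdown cells and 0.173 in Renilla cells (log2 ratio -0.03). The Klf5 promoter, on chromosome 14 at 99697909, had 0.119 in CAF-1 knockdown cells and 0.125 in Renilla cells (log2 ratio -0.07). A log2 ratio of 0.32 in either direction is the size used here to describe a difference. None of the 3 promoters reached it, while 6.68% of all promoters were at least that much higher in CAF-1 knockdown cells and 8.98% at least that much lower. The ratios stood at percentiles 56.6, 45.6 and 38.6 of all promoters for Klf2, Klf4 and Klf5. Each region has a single deposited value per condition, in a unit that is not stated, so there is no spread between libraries and no test.

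The Klf5 promoter had a lower level than the other two in both conditions. By the mean of both values, the Klf4 promoter stood at percentile 86.2 of all promoters and that of Klf2 at 80.0, while that of Klf5 stood at 20.8. The order Klf4, Klf2, Klf5 was the same in both conditions, and Klf4 and Klf2 lay within 0.01 of each other in each of them. Whether these neighbours in the order differ beyond the spread of libraries cannot be told from 1 value. Levels of different regions are set side by side with the caution that the files give single positions and no extent of the region behind a value.

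**Figure D1:**
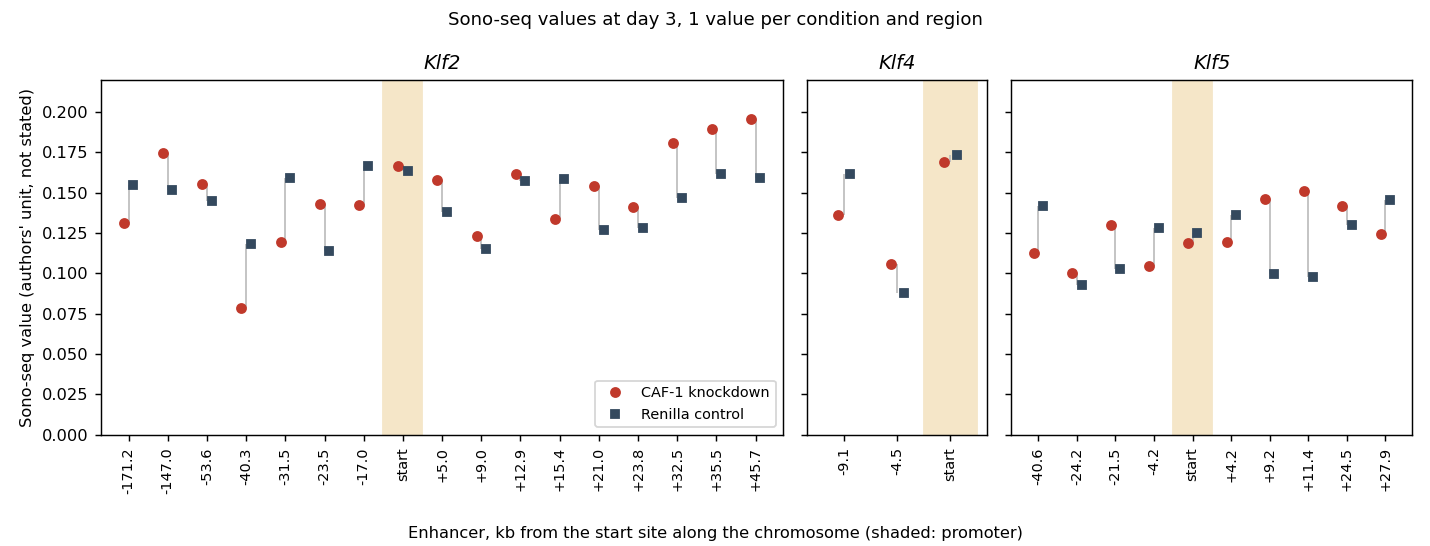
Sono-seq values (vertical axis, the authors' unit, not stated) of CAF-1 knockdown cells (red circles) and Renilla control cells (dark squares) at each enhancer and at the promoter (shaded) of Klf2, Klf4 and Klf5, ordered along the chromosome with the distance to the start site in kb. The points of a pair nearly meet at the promoters, and the widest gap on the higher side is at the Klf5 enhancers at +9.2 and +11.4 kb (1.47-fold and 1.54-fold).

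Enhancers of Klf2 mostly had higher values in CAF-1 knockdown cells on the downstream side of the gene. Klf2 had 16 enhancers, of which 11 had the higher value in CAF-1 knockdown cells, against 55.3% of all enhancers, with a median log2 ratio of 0.12 and a range of -0.60 to 0.33. Of the 9 enhancers at higher coordinates than the start site, which for this plus-strand gene is downstream, 8 were higher in CAF-1 knockdown cells, with a median of 0.19. Of the 7 upstream enhancers, 3 were higher and 4 lower, with a median of -0.23. The split by side was made after the values were seen.

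The downstream enhancers farthest from the start also had the highest levels of the gene. That at 45.7 kb (chromosome 8, 74888700) had 0.196 in CAF-1 knockdown cells and 0.159 in Renilla cells, a log2 ratio of 0.30 and the highest mean level of the 16. Its neighbours at 35.5 kb, with 0.189 in CAF-1 knockdown and 0.162 in Renilla, and at 32.5 kb, with 0.181 and 0.147 in the same order, had log2 ratios of 0.23 and 0.30. All 3 stayed short of 0.32, and by mean level they stood between percentiles 83.3 and 92.7 of all enhancers.

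The lowest and the highest ratio of Klf2 lay upstream. The enhancer 40.3 kb upstream (74802700) had 0.0782 in CAF-1 knockdown cells and 0.118 in Renilla cells, a log2 ratio of -0.60 at percentile 0.480 of all enhancers. Next to it, that at 31.5 kb (74811500) had 0.119 in CAF-1 knockdown and 0.159 in Renilla (log2 ratio -0.42). The next one, 23.5 kb upstream (74819500), went the other way, with 0.143 in CAF-1 knockdown and 0.114 in Renilla (log2 ratio 0.33, the highest of Klf2). These 3, the Klf2 enhancers past 0.32 in either direction, thus lay next to each other. Of the 16 they made 1 higher and 2 lower, against 10.3% and 6.58% of all enhancers. No Sox2 position was listed between 165.3 and 10.6 kb upstream, where they lay. That stretch also held the Klf2 enhancers at 74696000, 74789400 and 74825950, with log2 ratios of 0.20, 0.098 and -0.23, short of 0.32. Lack of Sox2 thus did not set the 3 apart, and 4.78% of all enhancers had a position within 500 bp.

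Most Klf2 enhancers are not assigned to Klf2 alone. Of the 16, 14 are also assigned to Rab8a, which encodes a small GTPase of vesicle transport and starts 158 kb away. These 14 had a median of 0.17 with 11 higher in CAF-1 knockdown cells, against 55.3% of all enhancers. The 2 assigned to Klf2 only, 171.2 and 17 kb upstream, were both lower, with log2 ratios of -0.23 and -0.23. That at 17 kb had 0.142 in CAF-1 knockdown and 0.167 in Renilla. That at 171.2 kb had 0.131 in CAF-1 knockdown and 0.155 in Renilla.

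Klf4 had the fewest enhancers, 2, and they differed in direction. The one 4.5 kb downstream of the start (55540800) had 0.106 in CAF-1 knockdown cells and 0.0876 in Renilla cells (log2 ratio 0.27). The one 9.1 kb downstream (55536250) had 0.136 in CAF-1 knockdown and 0.162 in Renilla (log2 ratio -0.25). Neither reached 0.32, and their median of 0.01 turned to -0.0063 or -0.0084 when both columns were scaled to the same median or mean over all regions. The nearer one had a low level, at percentile 5.04 of all enhancers. Whether DNA of the added Klf4 copy entered any of the values at this locus was not tested.

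Klf5 held the highest ratios of the 3 genes. Its 9 enhancers, none of them shared with another gene, had log2 ratios from -0.33 to 0.63 with a median of 0.11. Of the 9, 5 were higher in CAF-1 knockdown cells, close to the share of 55.3% over all enhancers. The enhancer at +11.4 kb (chromosome 14, 99709300) had 0.151 in CAF-1 knockdown and 0.0980 in Renilla, which is 1.54-fold. Its neighbour at +9.2 kb (99707100), 2.2 kb away, had 0.146 in CAF-1 knockdown and 0.0992 in Renilla, which is 1.47-fold. Their log2 ratios of 0.63 and 0.55 stood at percentiles 99.6 and 98.9 of all enhancers. In CAF-1 knockdown cells these were the highest values among the 9, and in Renilla cells the second and the third lowest. Of 367 pairs of neighbouring enhancers at most 2.5 kb apart in the table, 2.72% had both members higher by at least 0.32, a count set up after this pair was seen.

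The other 7 enhancers of Klf5 had ratios in both directions. At -21.5 kb (99676400) the value was 0.130 in CAF-1 knockdown and 0.103 in Renilla, 1.27-fold. At -40.6 kb (99657300) it was 0.113 in CAF-1 knockdown and 0.142 in Renilla, the lowest ratio of the gene (log2 ratio -0.33). The enhancers on either side of the promoter were both lower, with 0.104 in CAF-1 knockdown and 0.128 in Renilla at -4.2 kb, and 0.119 in CAF-1 knockdown and 0.136 in Renilla at +4.2 kb. That at +24.5 kb had the highest mean level of the 9, at 0.141 in CAF-1 knockdown and 0.130 in Renilla. Values at the remaining enhancers, at -24.2 and +27.9 kb, had log2 ratios of 0.11 and -0.22.

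Over the 27 enhancers together, 17 (11 of Klf2, 1 of Klf4 and 5 of Klf5) were higher in CAF-1 knockdown cells, against 55.3% of all enhancers. Higher by at least 0.32 were 4 of 27, against 10.3% of all, and lower by at least 0.32 were 3, against 6.58% of all. These counts are small and the shares lie close to the background. The median log2 ratio of the 27 was 0.11, against 0.028 over all 14265, and their SD of 0.31 stood beside 0.23 over all. Scaling both columns to the same median or mean left 17 higher, while the share of all enhancers became 51.6% (median) and 51.1% (mean). The count past 0.32 became 2 on the higher side, against 8.90% and 8.66% of all in the same order, and stayed 3 on the lower, against 7.83% and 7.96%. The 2 were lost because the Klf2 enhancer at -23.5 kb and the Klf5 enhancer at -21.5 kb lie just past that size.

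**Figure D2:**
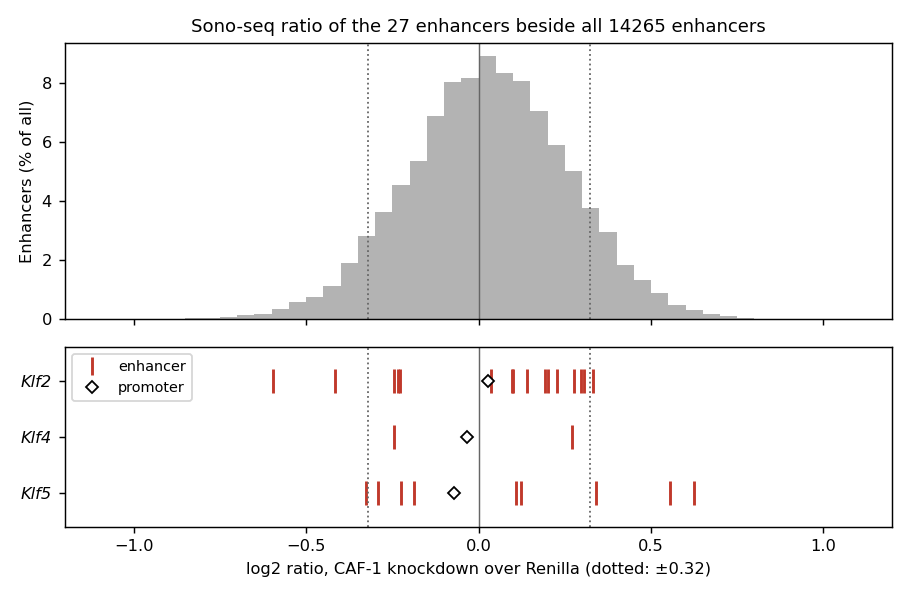
Log2 ratio of Sono-seq values, CAF-1 knockdown over Renilla (horizontal axis), as the percentage of all 14265 enhancers (grey bars, top) and for each enhancer (red ticks) and promoter (diamonds) of Klf2, Klf4 and Klf5 (bottom). Dotted lines mark 0.32 in either direction. The 3 promoters lie between -0.07 and 0.03. The 2 Klf5 ticks at 0.55 and 0.63 lie in the right tail of the grey bars, short of the highest ratio of all enhancers (1.13).

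The Sox2 lists addressed whether Sox2 reached these genes in CAF-1 knockdown and control cells. Klf2 had a Sox2 site just upstream in all 3 lists, and Klf4 had a position near its start in the Chaf1a.2122 list only. The nearest site of Klf5 lay 26.1 kb away in all 3. Over all start sites the median distance to the nearest position was 27697 bp in Chaf1a.166, 23448 bp in Chaf1a.2122 and 27650 bp in Renilla. The Klf5 distance was close to these, at percentiles 48.5, 52.8 and 48.6 in the same order. Scores and enrichments over input are the authors' values for single positions, and they are read only within their own list. Percentiles and ranks of the score are likewise given within a list, and since the lists differ in length they show no change between them. A position missing from a list lay below its threshold, read depth is unknown, and 1 library per hairpin allows no test.

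The Klf2 site lay 2825 bp upstream of the start in the Chaf1a.166 list (chromosome 8, 74840135), 2822 bp in the Chaf1a.2122 list (74840138) and 2864 bp in the Renilla list (74840096). Its enrichment over input was 18.5 in Chaf1a.166, 20.3 in Chaf1a.2122 and 17.2 in Renilla, with lower bounds of 6.65, 7.37 and 4.90 in the same order. By score it ranked 1316 of 15888 in Chaf1a.166, 1303 of 19319 in Chaf1a.2122 and 6264 of 17681 in Renilla. The 3 positions span 42 bp, and each is the best-scored position within 200 kb of Klf2 in its list. A position of all 3 lists within 10 kb is found at 20.8% of all start sites.

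A lower-scored site lay 10.6 kb upstream of Klf2 in both knockdown lists, at 74832361 in Chaf1a.166 and 74832410 in Chaf1a.2122. Its enrichment was 5.71 in Chaf1a.166 and 25.6 in Chaf1a.2122, with lower bounds of 1.33 and 4.34. Its score stood at percentiles 6.80 and 29.4 of those lists. The Renilla list had no entry there, and how far below its threshold the site lay in those cells cannot be read from the list. No other site lay within 50 kb of the Klf2 start.

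Farther out, the Klf2 neighbourhood held sites that lie closer to other genes. The site shared by all 3 lists at 95.1 kb downstream, at 74938038 in Chaf1a.166 and 74938034 in Chaf1a.2122 and in Renilla, is 7.3 kb from the start of Eps15l1, which encodes an endocytic adaptor protein. Another shared site lay 182.2 to 182.3 kb upstream, nearest to Rab8a, with enrichments of 13.3 in Chaf1a.166, 7.58 in Chaf1a.2122 and 12.6 in Renilla. Near it, 4 more sites from 183.4 to 165.3 kb upstream were held by 1 list each or, at 166.3 kb, by Chaf1a.2122 and Renilla, and 1 at 172.3 kb by both knockdown lists. One of these, the Renilla position at 74676617, had an enrichment of 1.15 with a lower bound of 0.0015, although its score stood at percentile 53.7. Downstream, Chaf1a.166 alone held a position at 84.6 kb and Renilla alone one at 124.8 kb, with enrichments of 3.42 and 1.98 and lower bounds under 1.

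**Figure D3:**
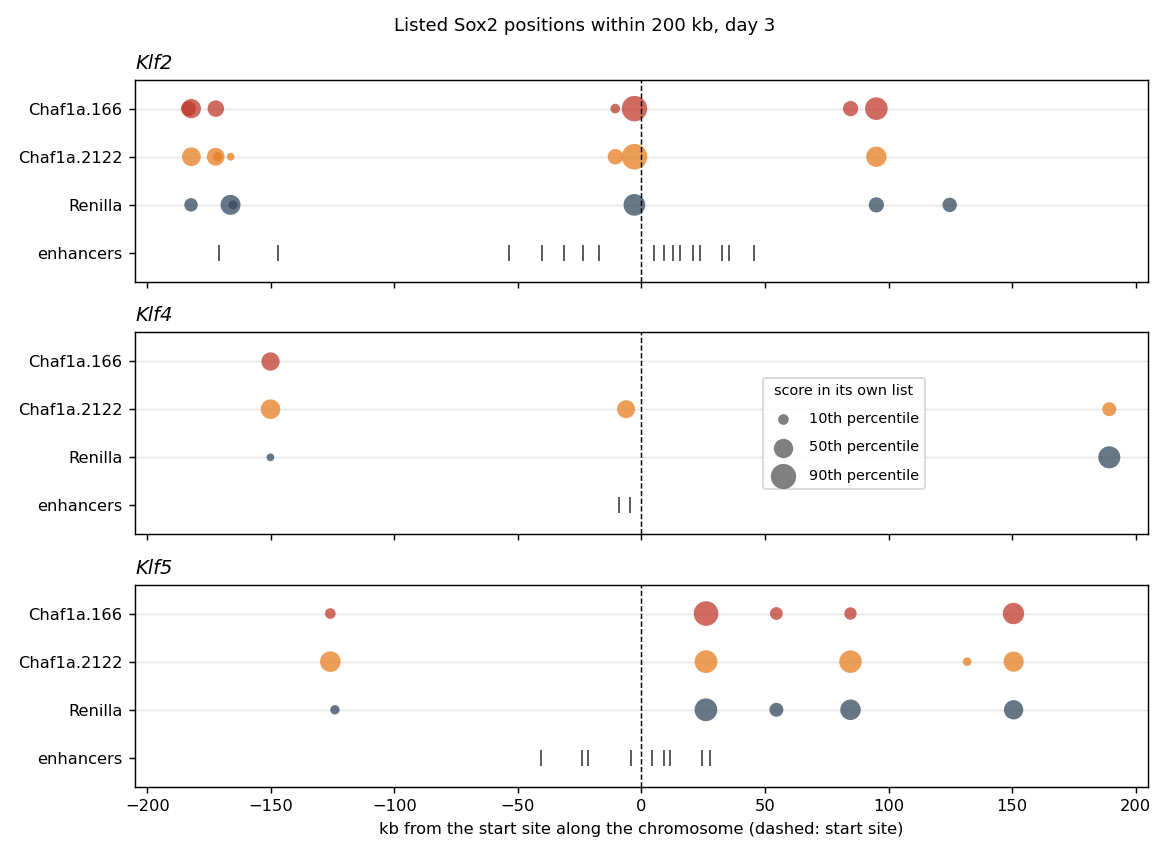
Listed Sox2 positions within 200 kb of the start sites of Klf2, Klf4 and Klf5 (horizontal axis, kb from the start along the chromosome) in the Chaf1a.166, Chaf1a.2122 and Renilla lists, with enhancers as ticks; the area of a point grows with the percentile of its score within its own list. Points of all 3 lists line up at -2.8 kb of Klf2 and at +26.1 kb of Klf5, and Klf4 has a point near its start in the Chaf1a.2122 row alone.

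Around Klf4, Sox2 positions were fewer than at the median start site in each list. The counts stood at percentiles 9.92 (Chaf1a.166), 28.1 (Chaf1a.2122) and 20.7 (Renilla) of all start sites. In Chaf1a.2122 and Renilla they equalled the lower quartiles, 3 and 2. Within 200 kb there was 1 in the Chaf1a.166 list (exact 95% Poisson limits 0.0253 and 5.57), with 3 in Chaf1a.2122 (0.619 and 8.77) and 2 in Renilla (0.242 and 7.22), against medians of 4, 5 and 4 in these lists over all 5513 start sites. The Chaf1a.2122 position 6219 bp downstream of the start (55539128) had an enrichment of 7.17 with a lower bound of 1.83 and ranked 11124 of 19319. It lay between the 2 Klf4 enhancers, 1672 bp from the nearer one. The nearest position of the other lists was 150.2 kb away in both. A position within 10 kb in the Chaf1a.2122 list alone is found at 6.08% of start sites.

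The other Klf4 sites were remote. All 3 lists shared one 150.1 to 150.2 kb downstream, 32.3 kb from the start of Rad23b, a gene of DNA damage recognition. The enrichments of this site were 21.7 in Chaf1a.166, 3.07 in Chaf1a.2122 and 8.78 in Renilla. The lower bounds were 3.53, 0.836 and 2.28 in the same order, so that in Chaf1a.2122 was under 1. In the Renilla list that position was close to the threshold, at rank 17374 of 17681. Chaf1a.2122 and Renilla shared a site 189.4 kb upstream, with enrichments of 5.80 and 8.02 in that order. The best-scored Klf4 position was that 189.4 kb upstream in Renilla, at percentile 67.1, and that near Rad23b in Chaf1a.166 and in Chaf1a.2122, at percentiles 43.9 and 51.2.

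Around Klf5 the 3 lists held 5 positions each (1.62 to 11.7). The medians over all start sites were 4 in Chaf1a.166, 5 in Chaf1a.2122 and 4 in Renilla. The Klf5 counts stood at percentiles 63.4, 54.2 and 62.0 in the same order. The best-scored Klf5 position lay at +26.1 kb in every list, at 99724062 in Chaf1a.166, 99724045 in Chaf1a.2122 and 99724004 in Renilla. Its enrichment was 15.6 in Chaf1a.166, 7.58 in Chaf1a.2122 and 6.71 in Renilla, and its score stood at percentiles 85.6, 71.7 and 71.8 of these lists. It fell between the Klf5 enhancers at +24.5 and +27.9 kb, 1.6 to 1.8 kb from each of them in all 3 lists. At these enhancers the Sono-seq ratios were 0.12 and -0.22, so neither reached 0.32. Within 10 kb of the Klf5 start all 3 lists were empty, as at 58.8% of all start sites.

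All 3 lists shared 2 further sites near Klf5. That at +84.6 kb had enrichments of 4.40 in Chaf1a.166, 29.7 in Chaf1a.2122 and 3.23 in Renilla. That at +150.6 kb had 6.36 in Chaf1a.166, 25.6 in Chaf1a.2122 and 33.2 in Renilla, with lower bounds of 2.37, 4.34 and 5.74. A site at +54.6 kb was held by Chaf1a.166 and Renilla, and one at -125.9 kb by both knockdown lists, with a position of Renilla at -124.1 kb. Chaf1a.2122 alone held one at +131.8 kb, with an enrichment of 7.17 and a lower bound of 0.848.

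Counted together, the 3 genes had 13 positions within 200 kb in the Chaf1a.166 list (6.92 to 22.2). There were 15 in Chaf1a.2122 (8.40 to 24.7) and 13 in Renilla (6.92 to 22.2). Over all start sites the mean per start site was 4.41, 5.21 and 4.58 in the same order. The limits overlapped, but the lists share sites and differ in length, so this is no test between lists. Klf2 had 7 in Chaf1a.166, 7 in Chaf1a.2122 and 6 in Renilla, the most of the 3 genes as deposited, at percentiles 83.4, 75.4 and 73.2 of all start sites. Among positions with an enrichment lower bound of 2 or more, Klf2 had 4 in Chaf1a.166, 5 in Chaf1a.2122 and 2 in Renilla, and in Renilla that was fewer than the 3 of Klf5 and as many as the 2 of Klf4. Positions at most 200 bp apart were taken as one site, which made 21 sites of the 41 positions. All 3 lists held 7 of them (33.3%, exact Clopper-Pearson interval 14.6 to 57.0), against 43.3% of all 25432 sites. Both knockdown lists without Renilla held 3 (1689 of all 25432 sites), Chaf1a.2122 with Renilla 2 (2482) and Chaf1a.166 with Renilla 1 (1177). Single lists held 2 in Chaf1a.166 (1997 of all sites), 3 in Chaf1a.2122 (4101) and 3 in Renilla (2982). Of the 41 positions, 8 had an enrichment lower bound under 1. These were 2 of 13 in Chaf1a.166, 3 of 15 in Chaf1a.2122 and 3 of 13 in Renilla. Over the whole lists the share was smaller in each, at 1157 of 15888, 2610 of 19319 and 1476 of 17681 in the same order. The counts near the 3 genes are small, and the difference in shares was not tested. Just outside the 200 kb limit, the next positions lay 233.3 to 233.4 kb from Klf2, 202.1 to 203.2 kb from Klf4 and 208.4 to 208.5 kb from Klf5, depending on the list.

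Listed Sox2 positions met few of the ES cell enhancers of these genes, as over the whole table. Of the 27 enhancers, 1, that of Klf2 at 171.2 kb upstream, had a Sox2 position within 500 bp, from the Chaf1a.2122 list at a distance of 335 bp, against 4.78% of all enhancers. Within 2000 bp the count was 4 (1 of Klf2, 1 of Klf4 and 2 of Klf5), against 12.2% of all enhancers. The Klf2 enhancer in question had a log2 ratio of -0.23, and its Sox2 position had an enrichment of 2.19 with a lower bound of 0.65. The Klf2 site at -2.8 kb lay 7.9 kb from the nearest Klf2 enhancer of the table.

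Other Krüppel-like and Sp genes, which bind similar sequences, gave a frame for the 3 promoters. Of 26 genes of these families listed for this purpose, 14 were in the table, 11 besides the 3, with 12 promoters. None of the 12 was higher by 0.32 or more in CAF-1 knockdown cells, 1 was that much lower and 11 lay between, with a median log2 ratio of -0.08, against -0.0093 over all promoters. The lower one was Sp2, with 0.121 in CAF-1 knockdown and 0.183 in Renilla (log2 ratio -0.59). Klf13, with 0.194 in CAF-1 knockdown and 0.156 in Renilla, and Klf7, with 0.182 and 0.149 in the same order, had the highest ratios (0.31 and 0.29). Their 74 enhancers had a median of -0.028, with 8 higher by at least 0.32 and 8 that much lower, against a median of 0.028 and shares of 10.3% higher and 6.58% lower over all enhancers.

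Sox2 positions near these family members were as mixed. Of the 12 promoters, 4 (Klf3, Klf6, Klf7 and Sp2) had a position within 10 kb in all 3 lists, 6 had none, and both start sites of Sp3 had one in the Renilla list alone. At Klf7 the nearest positions were 921 bp (Chaf1a.166), 903 bp (Chaf1a.2122) and 869 bp (Renilla) from the start. At Sp3 the nearest Renilla position was 95 bp from the nearer start, and the nearest of the knockdown lists were 15879 bp (Chaf1a.166) and 15293 bp (Chaf1a.2122) away.

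**Figure D4:**
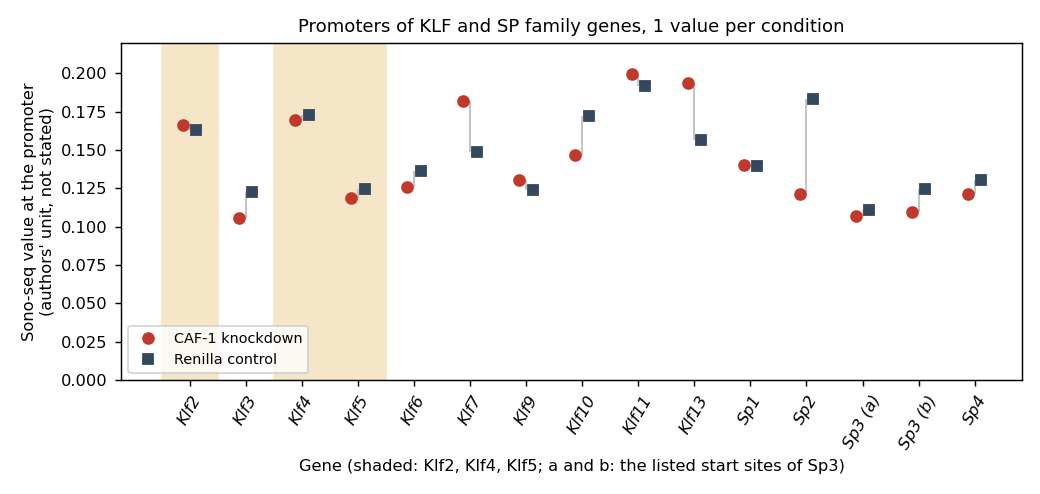
Sono-seq values at the promoters (vertical axis, the authors' unit, not stated) of the Krüppel-like and Sp genes in the table, with CAF-1 knockdown cells as red circles and Renilla control cells as dark squares; Klf2, Klf4 and Klf5 are shaded. Their pairs of points nearly meet, and the widest gap is at Sp2 (0.121 in CAF-1 knockdown, 0.183 in Renilla).

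In the naive pluripotency network, to which Klf2, Klf4 and Klf5 belong in ES cells, 29 of 30 listed other genes were in the table, with 31 promoters. Of these, 4 were higher by at least 0.32 in CAF-1 knockdown cells, 3 at least that much lower and 24 between, with a median log2 ratio of -0.0012. Over all promoters these shares were 6.68% higher and 8.98% lower. The highest ratio was that of Dppa2, a gene of ES and early embryo cells, with 0.103 in CAF-1 knockdown and 0.0507 in Renilla (log2 ratio 1.02), and Fgf4, a growth factor of ES cells, had 0.202 in CAF-1 knockdown and 0.159 in Renilla (log2 ratio 0.35). The other two were Stat3, the transcription factor of the LIF signal upstream of Klf4, with 0.189 in CAF-1 knockdown and 0.145 in Renilla (log2 ratio 0.38), and Socs3, the feedback inhibitor of that signal, with 0.204 and 0.157 in the same order (log2 ratio 0.38). The receptor genes of that signal did not reach 0.32, with log2 ratios of 0.27 for Lifr and -0.08 for Il6st. The lower ones were Dppa5a (-0.38), Tbx3 (-0.53) and Tcfcp2l1 (-0.36), the last of which is another target of Stat3. The promoters of Dppa2 and Dppa5a had low levels, at percentiles 1.82 and 0.66 of all promoters. Of the 31 promoters, 11 had a Sox2 position within 10 kb in all 3 lists, as Klf2 did, 16 had none in any list, as Klf5 did, and 4 had one in some. The 11 are not separate genes, since they include the Upp1 start sites at 9018010, 9018105 and 9018509, near the same Sox2 site. Over all start sites the shares were 20.8% in all 3 lists and 58.8% in none.

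The genes whose promoters were most like each of the 3 were sought by the distance between log2 Sono-seq values in both conditions, over 2 values per gene, among genes with the same pattern of Sox2 positions within 10 kb. Nearest to Klf2 were 1700008O03Rik, Ovca2 and Ttc25, at log2 distances of 0.014, 0.015 and 0.027 among 1147 candidates. Klf4 had 2310014L17Rik, Slc35b1 and Slc38a10, at 0.019, 0.022 and 0.027 among 334. For Klf5 they were 4931414P19Rik, Dcps and Slc25a30, at 0.013, 0.015 and 0.016 among 3243. With 2 values per gene, near neighbours are plentiful, and nothing else is read from them.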

How the data were processed

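Per the labels, each Sox2 list compares 1 immunoprecipitate with 1 input of the same hairpin, and each Sono-seq group has 3 libraries. Per the submitters' processing notes, the build was mm9 and the aligners named are Bowtie and BWA 0.7.8, with no word on which libraries each served. How positions were called is not given here. Columns deposited for a position, per the file headers, are its score, E-value, FDR (a q-value) and enrichment ratio over input with a lower bound. The deposited Sono-seq values were treated as a score, since their unit, scaling and pooling are not given, and the log2 ratio was taken without a pseudocount. With 1 value per condition, no test was run.

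Computed here with Python 3.11.15, numpy 2.4.6, pandas 2.3.3 and scipy 1.17.1 were the distances, joined sites (neighbours within 200 bp, tested on simulated lists), percentiles, exact Poisson and Clopper-Pearson intervals at 95%, which cover counting error only, and motif matches. The 3 genes and the gene lists were chosen with earlier results of these data known. Named are all Sox2 sites within 50 kb, the best-scored site of each gene, and each gene's enhancers of highest and lowest ratio and highest level; others were chosen after their values were seen. Alternatives were stricter lists, other joining distances and windows, scalings and pseudocounts. Protein sequences were not used here.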

Additional observations from a re-analysis of the deposited data

How the results depend on the processing

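Of 82 alternative values for 24 results, 66 stayed within 1.5 times a count or within 0.1 of a log2 ratio without a change of sign. Alternatives that leave out enhancers or rescale the enhancer counts were chosen after seeing the data. The 66 are no measure of stability, since some alternatives could hardly move. Scaling to the same median or mean shifts every log2 ratio by only -0.019 or -0.022, well under the limit of 0.1. Keeping only positions whose enrichment had a lower bound of 2 or more, those within 200 kb became 4 (Chaf1a.166) and 2 (Renilla) for Klf2, 0 (Chaf1a.2122) for Klf4, and 3 in each list for Klf5, and no site of all 3 lists was left at Klf4 (0 against 1). With lists of equal length, Klf4 kept 1 Renilla position and 0 sites of all 3 lists. Fewer positions follow from the thresholds themselves. A window of 200 bp left 0 Klf2 enhancers with a Sox2 position, and one of 2000 bp gave 1 for Klf4 and 2 for Klf5. The median of the 2 Klf4 enhancers turned to -0.0063 and -0.0084 under scaling to the same median and mean. Under both scalings 2 of the 27 enhancers were higher by at least 0.32, against 8.90% and 8.66% of all. A false discovery rate of at most 0.001 removed no position and could remove none, as the highest in any list was 0.00064 (Chaf1a.166). No paired analysis was possible because Sono-seq has a single deposited value in each condition and Sox2 a single library per hairpin, and for that reason no library was left out in turn. Unknown read depth limits any statement on missing positions.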
